A study of Mus musculus with 16 samples.

Results

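The clustered histone genes were taken as every mRNA whose symbol begins with Hist1h, Hist2h, Hist3h or Hist4h, and 67 of the 21878 mRNAs in the deposited tables met this rule. They comprised 6 genes of the linker histone H1, 18 of H2A, 18 of H2B, 12 of H3 and 13 of H4. In the GENCODE M21 annotation of GRCm38, 54 of them lie on chromosome 13, 10 on chromosome 3, 2 on chromosome 11 and 1 on chromosome 6. Of the 67 genes, 62 have a single exon, and 24 overlap another annotated gene. Those tested were the 63 that reached 16 counts in all, summed over the 16 libraries. The remaining 4 were Hist1h2aa, with 0 counts in every library, and Hist1h2ba, Hist1h2br and Hist3h2a, with totals of 4, 4 and 3 counts.

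Histone proteins package DNA. H2A, H2B, H3 and H4 form the core particle around which DNA is wound, and H1 binds the DNA between particles. The clustered genes supply most of the histone protein that a cell needs when it copies its DNA, so their transcripts are abundant in dividing cells. Their mRNAs end in a conserved stem-loop instead of a poly(A) tail, which binds the protein SLBP, and histone genes outside the clusters encode replacement histones that are made without DNA replication.

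EAE, experimental autoimmune encephalomyelitis, is a mouse model of multiple sclerosis in which immunization against a myelin peptide leads to inflammation of the central nervous system. All 16 mice were wild-type (WT) female C57BL/6 mice aged 8 weeks, and brain cells in the CD11b+/CD45int gate for microglia, the resident macrophages of the brain, were sorted 14 days after induction. The 8 EAE mice received MOG peptide in complete Freund's adjuvant together with 200 ng of pertussis toxin, for which the labels give days 0, 2 and 7, and the 8 PBS-treated mice are labelled with PBS and, by the study's methods, were injected with PBS on the same protocol. Whether these injections held the adjuvant or the toxin is not spelled out, so the effects of immunization as such and of the disease cannot be told apart.

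Library totals lay between 24587443 and 30244215 counts for EAE mice and between 26031889 and 34184576 for PBS-treated mice, and the clustered histone genes together held 0.0193% to 0.0270% of them. In the sorted fractions, markers of neurons, astrocytes and oligodendrocytes had higher mean levels than those of microglia. The levels of the clustered histone genes therefore cannot be assigned to microglia. Microglia markers such as Tmem119, P2ry12 and Csf1r were present in every library, with a mean over the 10 markers of 8.24–14.6 FPKM, whereas the mean was 117–146 FPKM over 8 neuron markers, 179–272 FPKM over 6 astrocyte markers and 146–206 FPKM over 6 oligodendrocyte markers. In samples of mixed cells, fewer cells of a type and less RNA per cell cannot be told apart. Over mRNAs with a mean of at least 100 counts, pairs of libraries within EAE 6, EAE 7 and EAE 8 or within PBS 5, PBS 7 and PBS 8 had a median squared difference of 3.07 to 4.09 times that of counting noise, and all other pairs of the same group of 6.29 to 26.4 times. The values of Hist1h2bj and the medians of each type are also given within these 6 libraries and within the other 10. These 6 were picked from the same counts for this likeness, so an adjusted p within them is not comparable with that of the full fit. The p-values measure the spread between mice, with 1 library per mouse.

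The stem-loop was searched on the sense strand of the annotated transcripts as 16 bases, with arms of 6 complementary bases around a loop of 4, in which the left arm reads GGNNCT, the loop TNNN and the right arm AGNNCC. It was found in 46 of the 67 genes, and in 26 of 21834 other protein-coding genes, or 0.119%. Of the other 21 clustered genes, 13 have no bases annotated after the stop codon. The remaining 8 have from 1 base (Hist1h2af) to 2192 bases (Hist2h2be) there without a match, among them Hist1h2bc with 742, Hist1h2bq with 1608 and Hist1h2br with 1803. The sequences below are shown because the stem differs with the histone type. The stem-loop is in capitals, with 5 flanking bases on each side in lower case. Annotated transcripts run on past it by differing lengths, such as 3 bases in Hist1h4m, 23 in Hist1h2bj, 330 in Hist1h4i and 4884 in Hist1h1d.

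Hist1h2bj (H2B), chr13:22043633-22043658, plus strand of GRCm38: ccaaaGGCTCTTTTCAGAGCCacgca
Hist1h3c (H3), chr13:23745042-23745067, minus strand: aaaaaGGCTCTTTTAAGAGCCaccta
Hist1h4h (H4), chr13:23531453-23531478, plus strand: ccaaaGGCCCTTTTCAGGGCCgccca
Hist1h4i (H4), chr13:22040961-22040986, minus strand: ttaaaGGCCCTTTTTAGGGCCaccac
Hist1h4b (H4), chr13:23757361-23757386, plus strand: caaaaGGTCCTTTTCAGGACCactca

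The 34 genes of H1, H2A, H2B and H3 with a match all had the arm GGCTCT. Of the 12 H4 genes with a match, 10 had the arm GGCCCT and 2, Hist1h4b and Hist1h4j, had GGTCCT. The most frequent whole stem-loop, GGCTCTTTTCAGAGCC, was shared by 26 genes. The median log2FC between EAE and PBS-treated mice was 0.09 over the 33 tested genes with the arm GGCTCT, −0.13 over the 10 with GGCCCT and −0.29 over the 2 with GGTCCT, and since the arm follows the histone type, this division is nearly that between H4 and the other types.

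Differential expression was measured with the quasi-likelihood test of edgeR, fitted to the raw counts, with p-values adjusted by Benjamini-Hochberg over all 17885 mRNAs tested. A log2FC above 0 means a higher level in EAE mice. An mRNA was called a DEmRNA at an adjusted p under 0.05 and a |log2FC| over 1. Of the 63 clustered histone genes tested, 1 was called, against 0.117% of all mRNAs tested. This was Hist1h2bj, which was higher in EAE mice. No further member had an adjusted p under 0.05, a level that 2.42% of all mRNAs reached. An unadjusted p under 0.05 was seen in 10 of the 63, or 15.9%, compared with 17.4% of all mRNAs. Of these 10, 5 were higher in EAE mice (7.92% of all mRNAs) and 5 were lower (9.52% of all mRNAs). The share of clustered histone genes past either level was thus near that of the whole table.

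**Figure D1:**
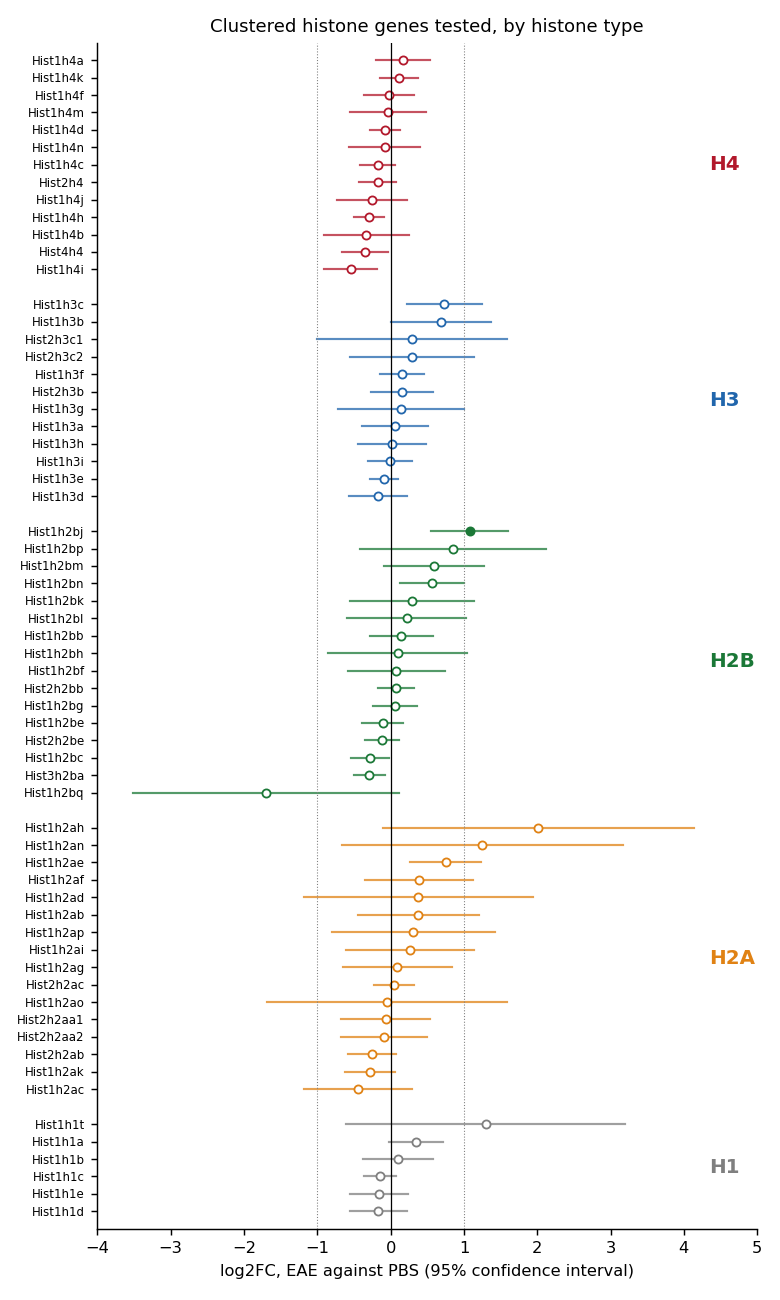
log2FC between EAE and PBS-treated mice on the horizontal axis for each of the 63 clustered histone genes tested, grouped by histone type, with lines for the 95% confidence interval of the edgeR fit and dotted lines at −1 and 1. Only the filled point, Hist1h2bj, had an adjusted p under 0.05, and 11 of the 13 H4 genes lie left of 0.

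Hist1h2bj encodes an H2B protein and is a single-exon gene at chr13:22043214-22043676 on the plus strand. Its raw counts were 19, 28 and 33 (lowest, median and highest) in EAE mice and 9, 12.5 and 20 in PBS-treated mice. Its FPKM, which corrects for transcript length and library size, ranged from 1.70 to 2.96 in EAE mice, with a median of 2.32. The range was 0.642 to 1.51 in PBS-treated mice, with a median of 1.06. Every EAE library lay above every PBS library in FPKM, whereas the raw counts met between 19 and 20. In TMM-scaled CPM the groups did not overlap either, which held for 1 of the 63 members and for 0.369% of all mRNAs.

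The log2FC of Hist1h2bj was 1.08 (SE 0.25, adjusted p = 0.0272 in the edgeR test), a fold of 2.11 with a 95% confidence interval of 0.56 to 1.60 on the log2 scale. The lower bound of that interval is below the threshold of 1. An exact permutation test of the difference in mean FPKM gave p = 0.000155 (two-sided), the smallest p that 8 mice against 8 allow, and 0.0591 after adjustment over all mRNAs tested. Without EAE 1, EAE 2, EAE 8, PBS 2, PBS 5 or PBS 7 the edgeR adjusted p was between 0.0531 and 0.0624, and the log2FC stayed between 0.99 and 1.17 over all 16 fits that each left out 1 library. Within EAE 6, 7 and 8 against PBS 5, 7 and 8, the log2FC was 1.13 (adjusted p = 0.106 in edgeR), and among the remaining 5 libraries of each kind 1.04 (adjusted p = 0.252 in edgeR).

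At the mean counts of each group, counting error alone amounts to a coefficient of variation of 19.5% in EAE and 27.2% in PBS libraries, and the observed coefficients were 20.3% and 29.5%, respectively. Of the 150-base stretches of the Hist1h2bj transcript, the read length used, 77.7% occur in no other annotated gene, and the rest are shared with 7 genes. For stretches of 75 bases the share was 49.6%, with 14 genes. How the counting treated reads that match several genes is not given in the sources used here.

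Markers of other cells moved with the groups as well. Of the 10 neutrophil markers, all 10 had a log2FC above 0 and 5 had an adjusted p under 0.05 in edgeR, and their summed FPKM was 49.6–99.8 in EAE and 19.3–56.9 in PBS libraries. Elane and Ctsg, granule proteases made by neutrophil precursors, had at most 5 and 6 counts in any library and were at 0 in some. Among 10 microglia markers, 1 had an adjusted p under 0.05, and the summed FPKM was 97.9–146 in EAE and 82.4–138 in PBS libraries. Of 6 markers of proliferating cells, 1 had an adjusted p under 0.05, and the sums were 3.999–6.19 and 3.33–4.72 FPKM, respectively. Neuron markers summed to 939.8–1087.7 FPKM in EAE and 1070.3–1169.99 in PBS libraries, and 2 of the 8 had an adjusted p under 0.05 in edgeR, both lower in EAE mice. Astrocyte markers (1 of 6 with an adjusted p under 0.05, higher) summed to 1077–1633 and 1245–1478 FPKM, and oligodendrocyte markers (0 of 6 in edgeR, with 2 at an unadjusted p under 0.05, both lower) to 877.7–1238 and 973–1175 FPKM. The part of these cells in the values of the clustered histone genes was not tested.

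**Figure D2:**
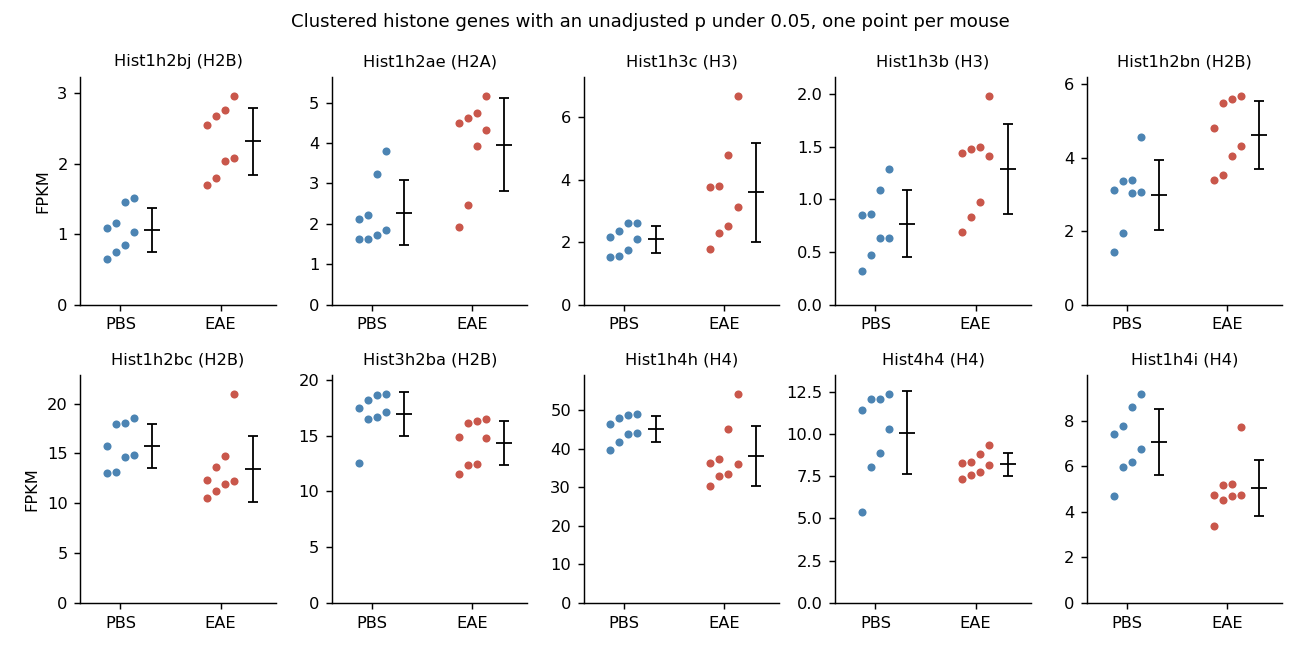
FPKM on the vertical axis for each of the 10 clustered histone genes with an unadjusted p under 0.05, with 1 point per mouse, 8 per group, and a bar for the mean ± SD. The groups are apart for Hist1h2bj and overlap for the other 9 genes.

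Hist1h2bj and its neighbour Hist1h2ag, an H2A gene, are transcribed away from each other, with 269 bases between their start sites. The stretch between them is shown because the called gene and its partner share it. It runs from 250 bases before to 50 bases after the RefSeq start of Hist1h2bj at chr13:22042948-22043247 (GRCm38.p6, plus strand), with the CCAAT box, the TATAA box and the octamer ATTTGCAT in capitals on either strand.

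Hist1h2bj promoter: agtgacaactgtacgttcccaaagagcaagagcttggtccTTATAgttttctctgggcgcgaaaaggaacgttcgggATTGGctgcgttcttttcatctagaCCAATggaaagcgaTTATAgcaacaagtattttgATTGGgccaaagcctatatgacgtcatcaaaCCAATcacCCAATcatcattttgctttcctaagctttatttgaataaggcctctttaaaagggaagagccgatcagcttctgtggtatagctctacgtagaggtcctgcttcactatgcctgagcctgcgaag

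CCAAT occurs in it on both strands, and the octamer ATTTGCAT on neither. TATAA occurs only on the minus strand, printed as TTATA, which is the strand of Hist1h2ag and not of Hist1h2bj. RefSeq promoters of the same 300 bases were found for 61 of the 67 genes. CCAAT was present in 52 of the 61, including all 18 H2A, 16 H2B, 10 H3 and 5 H1 promoters and 3 of 12 H4 promoters, against 37.4% of 32851 promoters. TATAA was present in 48 (24.9% of all promoters), namely 4 of 5 in H1, 16 of 18 in H2A, 12 of 16 in H2B, 5 of 10 in H3 and 11 of 12 in H4. The octamer was present in 13 (1.74% of all promoters), of which 7 belonged to H2A genes and 6 to H2B genes. Matches on either strand were counted, so where head-to-head partners share a stretch, a match can lie in the direction of the partner. These matches are counts of letters, not measured binding.

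Of 12 such head-to-head pairs of an H2A and an H2B gene, 10 had both genes tested. Hist1h2ag had a log2FC of 0.09 (SE 0.36) beside the 1.08 of Hist1h2bj, with 5 to 17 counts in the EAE libraries and 5 to 13 in the PBS libraries. The ratio of Hist1h2bj to Hist1h2ag counts ranged from 1.59 to 6.60 in EAE libraries (median 3.40) and from 0.750 to 3 in PBS libraries (median 1.84), and the ranges overlapped. The 95% confidence interval of Hist1h2ag was −0.65 to 0.84 on the log2 scale, and the difference between the partners was not tested.

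Of the 10 pairs, 8 had log2FC of the same sign in both genes, which is a count of directions without a test. Hist1h2ae (0.75) was paired with Hist1h2bg (0.06), with 175 bases between their starts, and Hist1h2ak (−0.28) with Hist1h2bn (0.57), with 295 bases between them. The latter pair and Hist2h2ac (0.05) with Hist2h2be (−0.11) were those of opposite sign. In Hist1h2bn counts per Hist1h2ak count, the EAE libraries ranged from 0.442 to 1.33 (median 0.906) and the PBS libraries from 0.259 to 0.764 (median 0.513), again with overlap. In Hist1h2bg counts per Hist1h2ae count, EAE libraries ranged from 0.945 to 3.50 (median 1.98) and PBS libraries from 1.73 to 5.32 (median 3.27), also overlapping.

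**Figure D3:**
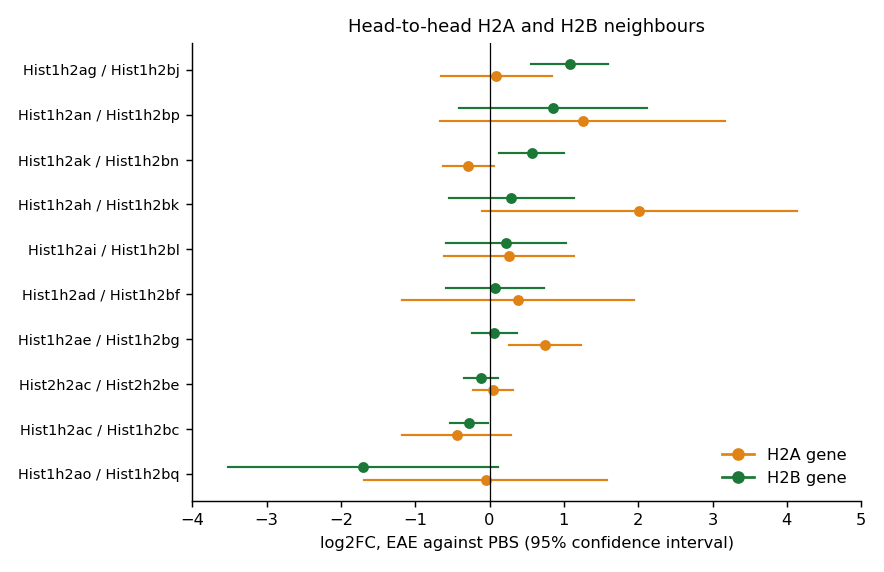
log2FC between EAE and PBS-treated mice on the horizontal axis for the H2A and the H2B gene of the 10 head-to-head pairs with both genes tested. Pairs are listed on the vertical axis, with 1 point per gene and a line for the 95% confidence interval of the edgeR fit. Hist1h2bj lies at 1.08 and its partner Hist1h2ag at 0.09, and both genes have the same sign in 8 pairs.

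Of the 16 H2B genes tested, 4 had an unadjusted p under 0.05, or 25%, against 17.4% of all mRNAs. Their median log2FC was 0.08 with 11 above 0, and within the 6 libraries most alike it was −0.27, with 4 of 15 above 0, and within the other 10 it was 0.36. Beside Hist1h2bj, Hist1h2bn ranged from 3.39 to 5.69 FPKM in EAE mice (median 4.57) and from 1.43 to 4.58 in PBS-treated mice (median 3.10). The groups overlapped at 3.39 to 4.58 FPKM, and the log2FC was 0.57 (SE 0.21, edgeR adjusted p = 0.155). Hist1h2bc ranged from 10.6 to 20.9 FPKM in EAE mice (median 12.3) and from 13.03 to 18.5 in PBS-treated mice (median 15.3). Of its EAE libraries, EAE 5 lay at 20.9 FPKM, above every PBS library, although the fitted log2FC was −0.28 (SE 0.12, edgeR adjusted p = 0.252). Without 1 library its edgeR adjusted p was 0.0277 (without EAE 5) to 0.430 (without PBS 2), and under 0.05 in 1 of 16 fits. Hist3h2ba, an H2B gene on chromosome 11, ranged from 11.5 to 16.5 FPKM in EAE mice (median 14.8) and from 12.5 to 18.7 in PBS-treated mice (median 17.3). The groups overlapped through PBS 4 at 12.5 FPKM, the next lowest PBS library lying level with the highest EAE library at 16.5, and the log2FC was −0.29 (SE 0.10, edgeR adjusted p = 0.142). Hist2h2bb, the H2B gene with the highest mean FPKM (17.5), had a log2FC of 0.07 (SE 0.12), and none of its 150-base stretches was its own. The lowest log2FC of any member, −1.70 (SE 0.87), was that of Hist1h2bq, which rested on 6 counts in all EAE libraries together and 23 in all PBS libraries, a count ratio of 0.295 with an exact interval of 0.0984 to 0.746 that covers counting error only.

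Of the 16 H2A genes tested, 10 had a log2FC above 0 and the median was 0.18. Only 1 had an unadjusted p under 0.05 (6.25%, against 17.4% of all mRNAs). The median was below 0 with the stricter filter of edgeR's filterByExpr (−0.062) and within the 6 libraries most alike (−0.17, with 5 of 12 above 0), and 0.15 within the other 10. The gene with an unadjusted p under 0.05 was Hist1h2ae, at 1.93 to 5.17 FPKM in EAE mice (median 4.42) and 1.63 to 3.79 in PBS-treated mice (median 1.98). The EAE median lay above the highest PBS library, and the lowest EAE libraries fell within the PBS range. The log2FC was 0.75 (SE 0.23, adjusted p = 0.0885 in edgeR's quasi-likelihood test). Without 1 library the adjusted p in that test was 0.0199 (without EAE 4) to 0.175 (without EAE 8). It was under 0.05 in 2 of 16 fits, the second being 0.0401 without PBS 6. With DESeq2 it was 0.0352 and with edgeR's exact test 0.0434, and in none of these fits did its log2FC pass the fold threshold. Hist2h2ac, the H2A gene with the highest mean FPKM (10.54), had a log2FC of 0.05 (SE 0.13), Hist1h2ak (4.67) one of −0.28 (SE 0.16) and Hist2h2ab (4.53) one of −0.26 (SE 0.16). At the low end of counts, Hist1h2ac had a log2FC of −0.44 (SE 0.36). Hist1h2ah had the highest log2FC of any member, 2.02 (SE 1.02), from 14 counts in all EAE libraries and 3 in all PBS libraries, a count ratio of 5.28 with an exact interval of 1.47 to 28.7 for counting error only. Of the 14 counts, 7 were in EAE 6 and 4 in EAE 3, and 15.2% of the 150-base stretches of Hist1h2ah are its own.

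H3 genes had 9 of 12 log2FC above 0 and a median of 0.15, which was 0.035 within the 6 libraries most alike and 0.22 within the other 10. An unadjusted p under 0.05 was seen in 2 of the 12 (16.7%, against 17.4% of all mRNAs). Hist1h3c ranged from 1.76 to 6.68 FPKM in EAE mice (median 3.44) and from 1.51 to 2.62 in PBS-treated mice (median 2.13). The groups overlapped at the low end of the EAE range, and the log2FC was 0.73 (SE 0.25, edgeR adjusted p = 0.117). Without 1 library its edgeR adjusted p was 0.0316 (without EAE 4) to 0.219 (without PBS 2), and under 0.05 in 1 of 16 fits. Hist1h3b ranged from 0.685 to 1.98 FPKM in EAE mice (median 1.42) and from 0.319 to 1.28 in PBS-treated mice (median 0.744). Here too the groups overlapped, with a log2FC of 0.69 (SE 0.33, edgeR adjusted p = 0.278). The H3 gene with the highest mean FPKM, Hist1h3e (26.8), had a log2FC of −0.09 (SE 0.09). Hist1h3i (7.25 FPKM), Hist1h3f (6.19 FPKM) and Hist1h3d (3.95 FPKM) had log2FC of −0.01, 0.16 and −0.17, with SE of 0.14, 0.15 and 0.19, and the sign of Hist1h3i changed with the scaling.

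Of the 13 H4 genes, 11 had a log2FC below 0, with a median of −0.18, whereas 8468 of all 17885 mRNAs tested did, with a median of 0.01 over all. The number below 0 was 9 to 12 over all the alternative settings, and the median stayed below 0 in each, at −0.33 within the 6 libraries most alike and −0.047 within the other 10. Within the 6 libraries most genes of H1 (4 of 5), H2A (7 of 12) and H2B (11 of 15) were also below 0. With edgeR on all 16 libraries, no H4 gene reached an adjusted p under 0.05, and 3 had an unadjusted p under 0.05, or 23.1% against 17.4% of all mRNAs. Within the 6 libraries, Hist1h4c, Hist1h4d and Hist1h4h had an edgeR adjusted p of 0.0134, 0.00107 and 0.00478. None of these genes passed the fold threshold, whereas 104 of all mRNAs were called higher and 73 lower in that fit. The share of all mRNAs with an adjusted p under 0.05 in that fit is not given, so these genes are not set against it. The 6 libraries were picked from the same counts for their likeness, so these values are not a test of H4. Within the other 10 no member had an edgeR adjusted p under 0.05, and Hist1h4d had a log2FC of 0.067. Hist1h4h ranged from 30.3 to 54.2 FPKM in EAE mice (median 36.2) and from 39.8 to 49.0 in PBS-treated mice (median 45.2). EAE 4 was above every PBS library while the EAE median was below every one of them. The log2FC was −0.29 (SE 0.10, edgeR adjusted p = 0.114). Over the 16 fits without 1 library the edgeR adjusted p was 0.00789 (without EAE 4) to 0.211 (without PBS 2), and under 0.05 in 1. Hist1h4i ranged from 3.40 to 7.74 FPKM in EAE mice (median 4.75) and from 4.72 to 9.17 in PBS-treated mice (median 7.10). EAE 4 was again the highest EAE library, and the log2FC was −0.54 (SE 0.17, edgeR adjusted p = 0.0972, or 0.0431 with DESeq2). Without 1 library its edgeR adjusted p was 0.0189 (without EAE 4) to 0.212 (without PBS 2), and under 0.05 in 1 of 16 fits. Hist4h4, the single member on chromosome 6, ranged from 7.33 to 9.37 FPKM in EAE mice (median 8.20) and from 5.40 to 12.3 in PBS-treated mice (median 10.8). All EAE libraries fell inside the PBS range, and the log2FC was −0.35 (SE 0.15, edgeR adjusted p = 0.230). The H4 gene with the highest level of all members, Hist1h4d (76.6 FPKM), had a log2FC of −0.08 (SE 0.10), Hist1h4c (32.0 FPKM) one of −0.18 (SE 0.12), and Hist1h4a (8.28 FPKM) one of 0.16 (SE 0.18). Whether H4 genes differ from the other types was not tested.

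The 6 H1 genes had a median log2FC of −0.03, with 3 above and 3 below 0, and none had an unadjusted p under 0.05. The median was −0.30 within the 6 libraries most alike and 0.14 within the other 10. Hist1h1c, at a mean of 26.3 FPKM the most abundant per length, had a log2FC of −0.14 (SE 0.11). Hist1h1e (11.7 FPKM) and Hist1h1d (5.58 FPKM) had log2FC of −0.16 and −0.17, each with an SE of 0.19. Hist1h1t, known as the testis-specific linker histone, had 22 counts in all EAE libraries and 9 in all PBS libraries, with a log2FC of 1.30 (SE 0.92).

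Summed over the members of a type, the levels of the groups overlapped for every type. H4 took the largest share, at 191–313 FPKM in EAE mice (240.2 ± 40.4, SD, n = 8) and 237–287 FPKM in PBS-treated mice (255 ± 21.2, SD, n = 8). H2B summed to 78.0 ± 9.87 FPKM in EAE and 76.0 ± 2.89 in PBS-treated mice, and H3 to 61.4 ± 6.43 and 58.1 ± 5.89, respectively. H1 summed to 49.4 ± 9.05 FPKM in EAE and 51.0 ± 6.23 in PBS-treated mice, and H2A to 31.0 ± 2.56 and 29.1 ± 2.00, respectively. The difference in means was smaller than the larger SD of the pair for every type. EAE 4 was the highest EAE library for H4 and H2A, EAE 5 for H1, and EAE 6 the lowest for H4.

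**Figure D4:**
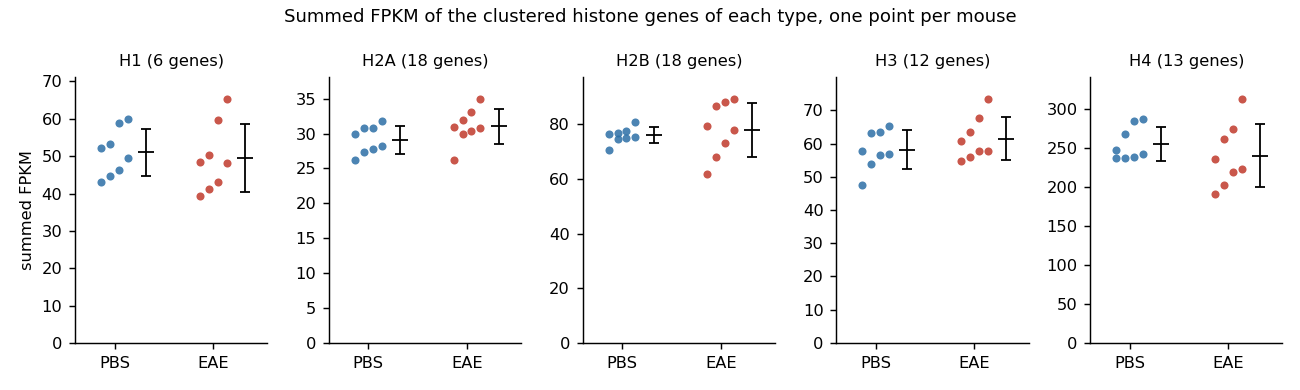
Summed FPKM of the clustered histone genes of each type on the vertical axis, with 1 point per mouse, 8 per group, and a bar for the mean ± SD. The groups overlap in each type, and EAE 4 is the highest point for H4 at 313 FPKM.

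Most clustered histone genes were counted at low depth. Their median mean count was 47.5 per library, against 459 over all mRNAs tested, and 21 of the 63 lay above the median of 5.26 FPKM over all mRNAs. The median biological coefficient of variation of the edgeR fit was 27.1% for the members and 12.99% for all mRNAs. The 14 members with a mean under 10 counts had log2FC from −1.70 to 2.02 with SE of 0.36 to 1.02, whereas the 20 members with a mean of at least 100 counts had log2FC from −0.35 to 0.16 with SE up to 0.19. In all, 5 members had a |log2FC| over 1.

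Among the 36 members with a mean of at least 2 FPKM, the median log2FC was −0.08, with 15 above 0 (41.7%). Over all 11875 mRNAs at that level the median log2FC was −0.01, with 45.3% above 0. Among the 27 members under 2 FPKM it was 0.29, with 20 above 0, compared with 0.14 and 67.1% above 0 over all 6010 mRNAs at that level. The 40 tested members with at least 50% of their 150-base stretches of their own held all 10 with an unadjusted p under 0.05. That was 25% of the 40, against 17.4% of all mRNAs, and the other 23 held none. Depth was not held equal between these sets, and Hist1h2ah, among the 23, had 14 counts in all EAE and 3 in all PBS libraries. Whether unique sequence played a part was not tested. Of the 67 members, 13 had only such stretches of their own and 5 (Hist2h2aa1, Hist2h2aa2, Hist2h2bb, Hist2h3b and Hist2h3c1) had none, so levels of single members among the latter are uncertain.

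**Figure D5:**
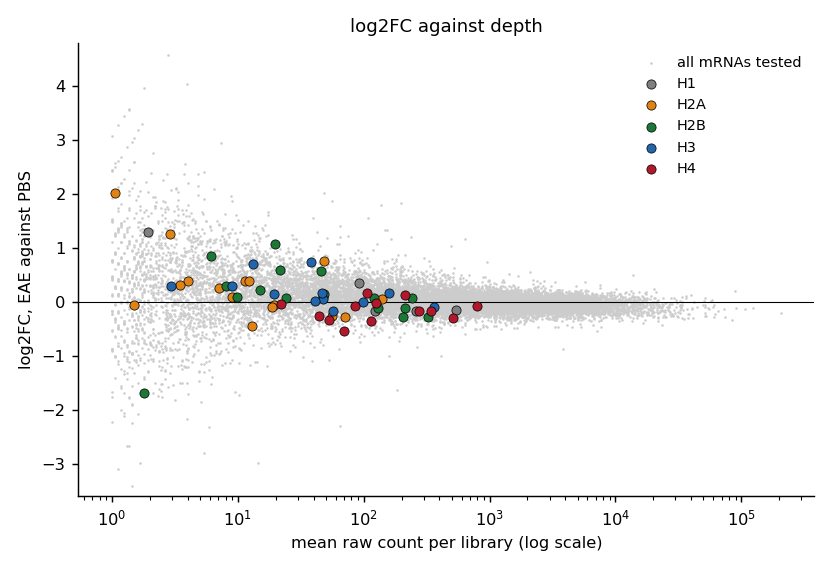
log2FC between EAE and PBS-treated mice on the vertical axis against the mean count per library on a log10 horizontal axis for the 63 clustered histone genes tested, coloured by histone type. The spread narrows with depth, from −1.70 to 2.02 under 10 counts to −0.35 to 0.16 at 100 counts or more.

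An exact permutation test on FPKM, run gene by gene over the 16 mice, gave an unadjusted p under 0.05 for 8 of the 63 members, or 12.7%, compared with 18.4% of all mRNAs tested. Of these 8, 5 were higher in EAE mice and 3 lower. The 5 higher were those with an unadjusted edgeR p under 0.05, with exact permutation p of 0.00715 for Hist1h2ae, 0.0101 for Hist1h3c, 0.0162 for Hist1h3b and 0.00497 for Hist1h2bn beside the value for Hist1h2bj. The 3 lower were Hist3h2ba, Hist1h4h and Hist1h4i, with exact permutation p of 0.0227, 0.0367 and 0.0121.

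Genes that supply or accompany the clustered histones were described in the same fit. SLBP binds the stem-loop and NPAT drives transcription at the clusters, and Slbp and Npat had log2FC of −0.09 and 0.05 (edgeR adjusted p = 0.685 and 0.761). Of the 19 genes of histone mRNA transcription and 3′ end processing tested, 13 had a log2FC above 0 (median 0.05) and 1 had an adjusted p under 0.05. This was Cstf2, a subunit of the cleavage stimulation factor, at 31.3 to 35.6 FPKM in EAE mice (median 34.17) and 25.6 to 31.0 in PBS-treated mice (median 29.6). The lowest EAE library was just above the highest PBS library in FPKM, whereas the groups overlapped in TMM-scaled CPM, and it rose by a log2FC of 0.18 (SE 0.04, edgeR adjusted p = 0.0339), under the fold threshold.

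Of 24 genes of DNA replication and the cell cycle, 16 had a log2FC above 0 (66.7%, against 52.7% of all mRNAs, with a median of 0.13), 4 had an unadjusted p under 0.05 (16.7%, against 17.4% of all mRNAs), all with higher levels in EAE mice, and 1 had an adjusted p under 0.05. This was Mki67, a marker of cycling cells, at 0.770 to 1.72 FPKM in EAE mice (median 1.14) and 0.619 to 1.095 in PBS-treated mice (median 0.684). Its groups overlapped, and it rose by a log2FC of 0.58 (SE 0.14, edgeR adjusted p = 0.0361). Pcna, the sliding clamp of DNA polymerase, had a log2FC of −0.01 and Top2a, a topoisomerase of dividing cells, one of 0.46 (edgeR adjusted p = 0.939 and 0.308). The adjusted p stayed under 0.05 in 6 of the 16 fits without 1 library for Mki67 and in 5 of 16 for Cstf2.

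Of 11 replacement and linker histone genes outside the clusters, 8 had a log2FC below 0 (median −0.13). Of them, 3 (H2afx, H2afv and H3f3a) had an unadjusted p under 0.05. That was 27.3% of the 11, against 17.4% of all mRNAs, or 9.52% counting only those lower. None of the 11 had an adjusted p under 0.05 in edgeR's quasi-likelihood test. H3f3b, which encodes the replacement histone H3.3, had a log2FC of −0.12 (edgeR adjusted p = 0.390). Of 17 histone chaperone genes, 10 had a log2FC above 0 (median 0.02). None had an unadjusted or adjusted p under 0.05 in edgeR, against 17.4% and 2.42% of all mRNAs.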

How the data were processed

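Brain cells in the CD11b+/CD45int gate were profiled in 8 EAE and 8 PBS-treated mice, 1 library each, by stranded total RNA sequencing without ribosomal RNA and 150-base paired reads. The authors aligned reads to GRCm38 with HISAT2 2.1.0 and deposited raw counts per mRNA symbol from HTSeq 0.11.2, and FPKM. For each gene, FPKM kept a constant ratio to counts divided by the library total. DESeq2 1.22.2 is also named in the submitters' processing notes. The counting strand and the handling of reads with several matches are not given in the sources used here.

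Counts were tested in R 4.3.3 with edgeR 4.0.16 (TMM, quasi-likelihood test, condition as the only term, at least 16 counts in all over 16 libraries), adjusted by Benjamini-Hochberg over all mRNAs tested. FPKM was used for levels and for exact permutation tests (12870 divisions). Alternatives used DESeq2 1.42.0, limma 3.58.1 on log2(FPKM + 0.1) and log2(FPKM + 1), other scalings and filters, and each library left out. The 6 libraries most alike, the other 10 and a term for these sets were added after the data were seen. Procedures were checked on simulated counts. Stem-loops and read uniqueness came from GENCODE M21 transcripts, and promoters from RefSeq. The processing list gave the symbol Symplk where the deposited tables have Sympk, so this gene was left out of that list.

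The members, gene lists and markers were chosen with earlier results of these data known. Members named were the 3 with the highest FPKM, the highest and the lowest log2FC of each type, and those with an unadjusted p under 0.05 or groups that did not overlap. Paralogs by protein sequence were not used here. The replicate numbers were not used as pairs in the main fit, as set out with the alternatives.

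Marker lists not described with the results were summed too, and none of their genes had an adjusted p under 0.05: T cell 2.07–3.61 FPKM in EAE and 1.93–2.94 in PBS libraries, monocyte 7.05–9.83 and 6.36–10.7, endothelial 30.2–49.8 and 22.8–48.6, and erythroid 120.3–885 and 179.9–544, respectively.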

Additional observations from a re-analysis of the deposited data

Results flagged for a closer look

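In 8 of the 56 groups of 8 mice examined, 1 library stood far from the others by Dixon's test at the 95% level, which chance gives in about 5% of groups. EAE 4 was the highest EAE library for Hist1h4i, at 7.74 FPKM against 5.24 for the next, and for Hist2h2ab, at 5.80 against 4.36. EAE 5 was the highest for Hist1h2bc, at 20.9 against 14.8, and EAE 7 the lowest for Hist1h3i, at 4.67 against 7.01. Among PBS libraries, PBS 6 was the highest for Hist1h1t, at 0.244 against 0.0796, and PBS 1 for Hist1h2ah, at 0.147 against 0.0580, where single counts decide the value. PBS 3 was the lowest for Hist1h4d, at 64.6 against 74.8, and PBS 4 for Hist3h2ba, at 12.5 against 16.5.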

How the results depend on the processing

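Hist1h2bj kept a log2FC of 0.99–1.17 over the fits without 1 library, and the number of members called was 0–1. No member was called with limma on log2(FPKM + 1), where the log2FC of Hist1h2bj was 0.69, nor within the 6 libraries most alike or the other 10 (0 each). Over all mRNAs, the 17 called higher became 44 with the exact test, 5 with limma on log2(FPKM + 1), 104 in the 6 libraries, 5 in the other 10, 34 with a term for the sets, 118 without a fold threshold and 11–45 without 1 library. The 4 called lower became 2 with upper-quartile scaling, 1 with library totals, 8 with the exact test, 2 and 0 with limma (pseudocounts 0.1 and 1), 1 with filterByExpr, 73 in the 6 libraries, 1 in the other 10, 315 without a fold threshold and 1–7 without 1 library.

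The members with an unadjusted p under 0.05 were 3 higher in the 6 libraries, and 4–8 without 1 library. Those lower were 3 with library totals, 3 with limma on log2(FPKM + 1), 13 in the 6 libraries, 2 in the other 10 and 3–8 without 1 library. By permutation the count was 7–11 without 1 library. The shares of all mRNAs at this level in these alternative fits are not given, so none of these counts is read as a result about the members. In the 6 libraries 5 members had an adjusted p under 0.05 in edgeR, all lower (Hist1h3e, Hist1h4c, Hist1h4d, Hist1h4h and Hist3h2ba). The share of all mRNAs at that level in this fit is not given, so this count is not set against it. As the 6 libraries were picked from these counts for their likeness, the count is not read as a result about the members. Medians of log2FC moved to −0.30 (H1), −0.17 (H2A) and −0.27 (H2B) in the 6 libraries, to 0.36 (H2B) in the other 10, to −0.062 (H2A) with filterByExpr, and to 0.14 (H1) in the other 10. Without 1 library the medians were −0.073 (EAE 5) to 0.053 (EAE 6) for H1, 0.067 (PBS 1) to 0.24 (PBS 2) for H2A, 0.018 (EAE 3) to 0.18 (EAE 8) for H2B, 0.061 (EAE 2) to 0.20 (EAE 6) for H3 and −0.24 (EAE 4) to −0.11 (PBS 2) for H4, each without the library named. For gene lists, medians became 0.10 for transcription and 3′ end processing and 0.070 for chaperones with library totals, 0.070 and 0.068 for chaperones with limma (pseudocounts 0.1 and 1), and −0.044 for chaperones and −0.00083 for replication in the 6 libraries. Genes with an adjusted p under 0.05 became 4 (replacement histones), 4 (processing), 1 (chaperones) and 0 (replication) in the 6 libraries, 0 for processing and replication in the other 10, 0 for replication with both limma fits, and 0–1, 0–1 and 0–3 without 1 library for replacement, processing and replication. The causes were not tested.

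Signs turned at small values. In the other 10 libraries, Hist1h3e was 0.054, Hist1h4d 0.067, Slbp 0.051, Hist1h3i 0.025 and Pcna 0.014. In the 6 libraries, Hist1h4a was −0.10, Hist2h2ac −0.092, Hist2h2bb −0.057 and Top2a −0.26. Hist1h3i was 0.0082 with upper-quartile scaling, 0.039 with library totals and 0.040 and 0.036 with limma (pseudocounts 0.1 and 1), and Pcna 0.0055, 0.037, 0.038 and 0.036, respectively. Without 1 library, Hist1h3i was −0.066–0.056, Hist2h2ac −0.022–0.090 and Pcna −0.044–0.020.

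Deviations of mice with the same replicate number correlated at −0.235 to 0.580, over 0.1 in 3 of 8 numbers. Of the 8 numbers, 2 correlated best with their own, so most samples with the same number did not resemble each other more. EAE 4 and PBS 4, correlated at 0.580, were alike. Their median squared difference was 5.47 times counting noise, below that of all same-group pairs outside the 6 libraries (6.29 to 26.4). With the replicate number as a block, the adjusted p of Hist1h2bj in edgeR was 0.0460, 1 mRNA was called lower, and 0 genes of transcription and 3′ end processing had an adjusted p under 0.05.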
